A study of Gallus gallus with 2 samples.

Results

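Of the long non-coding RNAs (lncRNAs) listed for chicken breast muscle, 469 were isolated, lying at least 100 kb from every other listed interval on both sides. Position alone chose them, from 20613 listed transcripts on chromosomes 1 to 28 and Z, of which they made up 2.28%. The whole table held 21993 transcripts, of which 1380 lay on other sequences and were not considered. A chromosome's end counted as no neighbour, which let in 10 transcripts that were first or last on their chromosome. Isolation was measured against other listed lncRNAs and not against genes. The table names no gene, and no genome of its build (galGal4) was used here, so transcripts are named by position and no sequence is printed.

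The comparison addressed how breast muscle differs between a fast-growing and a slow-growing chicken. Both groups were female chickens of 7 weeks, kept in separate cages of a shared space on the same diet. The fast-growing strain was White Recessive Rock (WRR), with a body weight of 625.3 ± 12.0 g, and the slow-growing one was Xing Hua (XH), a native Chinese strain, with 328.5 ± 10.6 g. The labels do not name the kind of error. The hens were picked for an average weight. For each strain, RNA of 4 hens was pooled in equal amounts, depleted of ribosomal RNA and sequenced as 1 library, so no spread between birds is known and no p-value is given. The values are read counts, RPKM (reads scaled to a kilobase of transcript and to the library total in M) and coverage (how much of the length any read touched, in percent). Listed lncRNAs took 1846031 reads (19.5% of the library total beside the column) for WRR and 1883727 (24.4%) for XH. The table names no gene, so the labelled tissue could not be checked against muscle markers. In whole muscle, fewer cells of a type and less RNA per cell cannot be told apart.

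Long non-coding RNAs are transcripts that are not translated into a stable protein. Some act on genes near their own site of transcription, others on distant genes or in the cytoplasm, and many have no known role. In muscle, several are known from mammals to take part in the differentiation of myoblasts. Those lying between genes are commonly called intergenic, and they tend to be short, with few exons and of low abundance. Breast muscle of the chicken is a white, fast-twitch muscle. The chicken genome has a few large chromosomes and many small, gene-dense ones, and hens carry a single Z beside the W.

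Isolated lncRNAs lay in wide stretches without other listed transcripts. The distance to the nearer neighbour had a median of 156 kb, with quartiles of 122 and 240 kb, and the farther neighbour lay a median of 349 kb away. At least 200 kb on both sides was reached by 159 of the 469, at least 500 kb by 16 and at least 1000 kb by 1. That 1 transcript, of 303 bases, lay on chromosome 4 at 6997622 to 7002290, with 1220314 bases free before it and 1337723 after it. WRR gave 17 reads (5.94 RPKM) and coverage of 98.0%, XH gave 3 reads (1.28 RPKM) and 31.4%, a ratio of 4.63 with an exact 95% interval of 1.34 to 24.7. Its neighbours on both sides went the other way, with 5.69 and 0.732 RPKM for WRR against 16.4 and 3.81 RPKM for XH.

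The 459 transcripts with neighbours on both sides sat in empty windows of 209 to 4226 kb, with a median of 534 kb. The widest window was near the start of Z, where a 279-base transcript spanning 2820194 to 2820472 was followed by 4109385 bases without a listed lncRNA. It had 79 reads (30.0 RPKM) for WRR against 51 (23.7 RPKM) for XH, WRR over XH being 1.27 (0.879 to 1.84). Windows of 1 Mb or more held 79 transcripts, 56 of them on chromosomes 1-5 and 9 on Z.

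The next most isolated transcripts, listed here with the last of Z, had both neighbours more than 589 kb away, or 1 such neighbour and the end of the chromosome. On chromosome 12, the 1166-base transcript spanning 17296160 to 17297325 had 2.00 RPKM for WRR against 4.34 for XH, XH over WRR being 2.17 (1.26 to 3.84). On chromosome 1, the 1269-base transcript spanning 42010158 to 42011426 had 1.502 RPKM for WRR against 3.98 for XH, XH over WRR being 2.65 (1.48 to 4.93). Nearer the start of the same chromosome, the 780-base transcript spanning 9458407 to 9459186 had 2 reads in WRR and 26 in XH (0.272 and 4.32 RPKM), XH over WRR being 15.9 (3.98 to 138). A 689-base transcript spanning 69924198 to 69924886 of chromosome 4, with 2751580 bases free after it, also had 2 reads in WRR against 17 in XH, XH over WRR being 10.4 (2.47 to 92.8). The reverse held for the 491-base transcript spanning 97428219 to 97428709 of chromosome 3, which had 74 reads (15.96 RPKM) for WRR against 17 (4.49 RPKM) for XH, WRR over XH being 3.56 (2.08 to 6.43). Centring took the chromosome 12 transcript and that at 42010158 within 2-fold, at log2 ratios of -0.16 and -0.43. The last listed transcript of Z, 1760 bases at 82357902 to 82359661, had 6.80 RPKM for WRR against 8.76 for XH, with an interval of the ratio (0.594 to 1.01) that holds 1. Its log2 ratio of -0.36 became 0.55 when centred and 0.35 after quantile normalization.

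The limit of 100 kb cut through a continuous range. Just inside it, a 617-base transcript of Z at 48073428 to 48074044 had its nearer neighbour 100046 bases away, and 1.20 RPKM for WRR against 5.67 for XH. The next pair on chromosome 4, at 75959968 to 75960364 and 76060667 to 76061368, were each other's nearer neighbour at 100302 bases, with 6.94 and 1.51 RPKM in WRR and 14.4 and 3.32 RPKM in XH. Just outside it were transcripts at chromosome 4, 58198584 to 58199323 (99962 bases), chromosome 17, 5136461 to 5137469 (99806 bases), and chromosome 1, 3029126 to 3036357 (99688 bases). Their RPKM values were 2.00, 3.67 and 7.13 in WRR and 5.61, 5.27 and 13.7 in XH, in that order. The serial numbers of the table run to 22903, and 910 of them have no row in what was analysed. A transcript among those could end the isolation of a neighbour.

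Chromosome Z held more of the isolated lncRNAs than its share of the table. Of its 848 listed transcripts, 53 (6.25%) were isolated, against 416 of 19765 (2.10%) on the numbered chromosomes. It thus held 11.3% of the isolated and 4.11% of the listed transcripts. Listed transcripts were also sparse there, at 10.3 per Mb against 21.5 on the numbered chromosomes, while isolated ones numbered 0.643 and 0.452 per Mb. Chromosomes 1-5, 6-10 and 11-28 had 2.28%, 1.90% and 1.77% of their transcripts isolated. Chromosomes 27 and 28 had none, among 98 and 144 listed. Chromosomes 16, 22, 25 and 26 had 1 each.

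**Figure D1:**
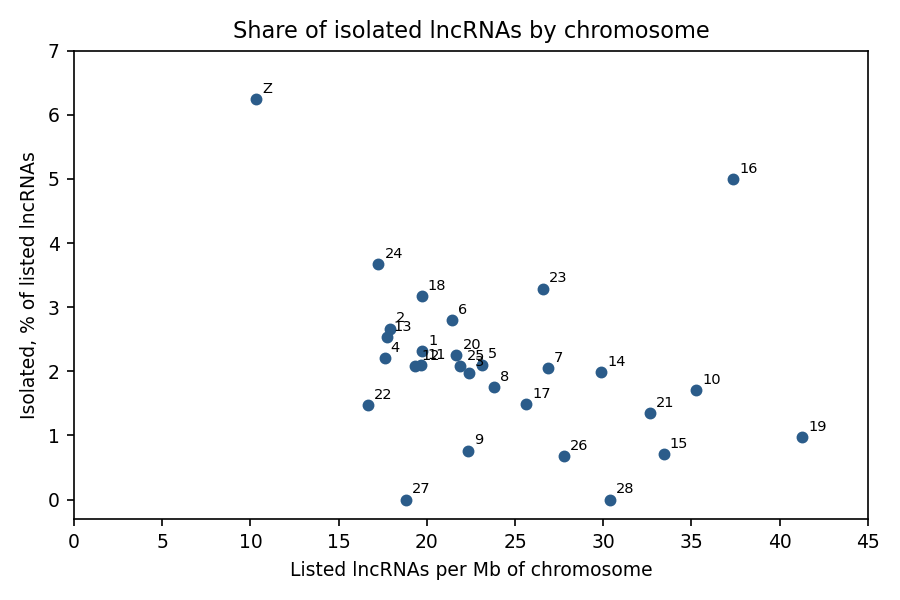
Share of listed lncRNAs that were isolated (vertical axis, percent) against the number of listed lncRNAs per Mb (horizontal axis), 1 point per chromosome, labelled with its name. Z stands at 10.3 per Mb and 6.25%, chromosome 16, with 20 listed transcripts, at 5%, and chromosomes 27 and 28 at 0.

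Across the 29 chromosomes, which differ in size and share the same 2 libraries, the isolated share was lower where transcripts were denser, with Spearman's rho of -0.43 and Pearson's r of -0.33. For the number isolated per Mb, rho was -0.027 and r was 0.24. These coefficients are descriptions, since the share follows in part from the density by the way isolation is defined.

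Abundance was low. The 469 transcripts had a median of 2.76 RPKM in WRR (quartiles 1.26 and 6.06) and 4.72 RPKM in XH (2.84 and 9.16), from medians of 20 and 25 reads. The 20144 other transcripts on the same chromosomes had medians of 2.56 and 4.398 RPKM from 20 and 28 reads. All 469 had at least 0.5 RPKM in the higher library, the minimum used for ratios. At least 10 RPKM was reached by 63 isolated transcripts in WRR and 108 in XH (13.4% and 23.0%), and by 9.92% and 19.8% of the others. The higher share was not particular to isolated transcripts. Among others with the nearer neighbour at 10 to below 50 kb it was 15.0% and 24.1%. At 50 to below 100 kb it was 16.0% and 26.4%, and below 1 kb 8.82% and 19.6%. At least 100 RPKM was reached by 1 in WRR and 3 in XH.

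A single transcript stood far above the rest. The 1101-base lncRNA at chromosome 1, 32562913 to 32564013, had 647 reads (62.2 RPKM) for WRR against 9152 (1077 RPKM) for XH, with reads over 99.9% of its length in both pools. It was 17.3-fold higher in XH, with an exact 95% interval of 15.99 to 18.8, which covers counting error only. The log2 ratio was -4.11, and it stayed between -3.20 and -4.20 under the other 3 scalings. Its nearest listed neighbours, 478249 bases before and 377339 bases after it, had far lower levels, with 0.425 and 14.1 RPKM in WRR and 3.38 and 4.97 RPKM in XH. The neighbour before was higher in XH (log2 ratio -2.73), and the one after was higher in WRR (1.49).

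This transcript alone held 19.5% of the reads on isolated lncRNAs in XH and 2.24% of those in WRR. All isolated transcripts together took 28937 reads in WRR, 0.306% of the library total (exact 95% interval 0.303 to 0.310%), and 47003 in XH, 0.609% (0.604 to 0.615%). Per total, that was 1.99-fold more in XH (1.96 to 2.02). Without the chromosome 1 transcript it was 1.64-fold (1.61 to 1.66), and over all listed transcripts 1.25-fold, with none removed. The last 2 values are thus not like for like. Among all listed transcripts, the top 10 by reads made up 29.7% of the reads for WRR but 11.3% for XH. A ratio without those 10 was not computed. Taken per transcript, all listed ones past the minimum had a median log2 ratio of -0.92.

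The other abundant isolated lncRNAs differed less between the pools. Second by mean RPKM was a 1272-base transcript spanning 13398711 to 13399982 of chromosome 8, with 71.6 RPKM for WRR against 126 for XH, XH over WRR being 1.75 (1.61 to 1.92). On chromosome 15, the 776-base transcript spanning 10699928 to 10700703 had 110 RPKM for WRR against 83.5 for XH, WRR over XH being 1.32 (1.18 to 1.48). A 366-base transcript spanning 52688255 to 52688620 of chromosome 3 had 55.6 RPKM for WRR against 104 for XH, but its 192 and 294 reads covered only 76.2% and 82.8% of it. Centring turned the sign of the chromosome 8 and this chromosome 3 transcript, to log2 ratios of 0.10 and 0.010.

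Among the next of the 10 most abundant, the Z transcript spanning 42394662 to 42396250 (1589 bases) had XH over WRR at 2.798 (2.51 to 3.12), with 31.9 RPKM for WRR against 89.3 for XH. A 388-base transcript spanning 6531255 to 6531642 of chromosome 2 had 26.5 RPKM for WRR against 60.5 for XH, XH over WRR being 2.28 (1.78 to 2.95). Also on chromosome 2, the 778-base transcript spanning 116915902 to 116916679 had 43.97 RPKM for WRR against 75.3 for XH, 1.71-fold higher in XH, which centring turned to a log2 ratio of 0.14. Of the same length, the transcript spanning 1000974 to 1001751 of chromosome 4 was higher in WRR by a ratio of 2.05 (1.73 to 2.43), with 67.2 RPKM for WRR against 32.8 for XH. The 336-base transcript spanning 54681457 to 54681792 of chromosome 3 had 61.8 RPKM for WRR against 55.6 for XH, a ratio whose interval (0.892 to 1.39) holds 1. Of the 10, 3 were past 2-fold towards XH and 1 towards WRR. Centring reversed this tally, to 1 towards XH (chromosome 1) and 3 towards WRR (those of chromosomes 4 and 15 and that at 54681457 of chromosome 3).

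**Figure D2:**
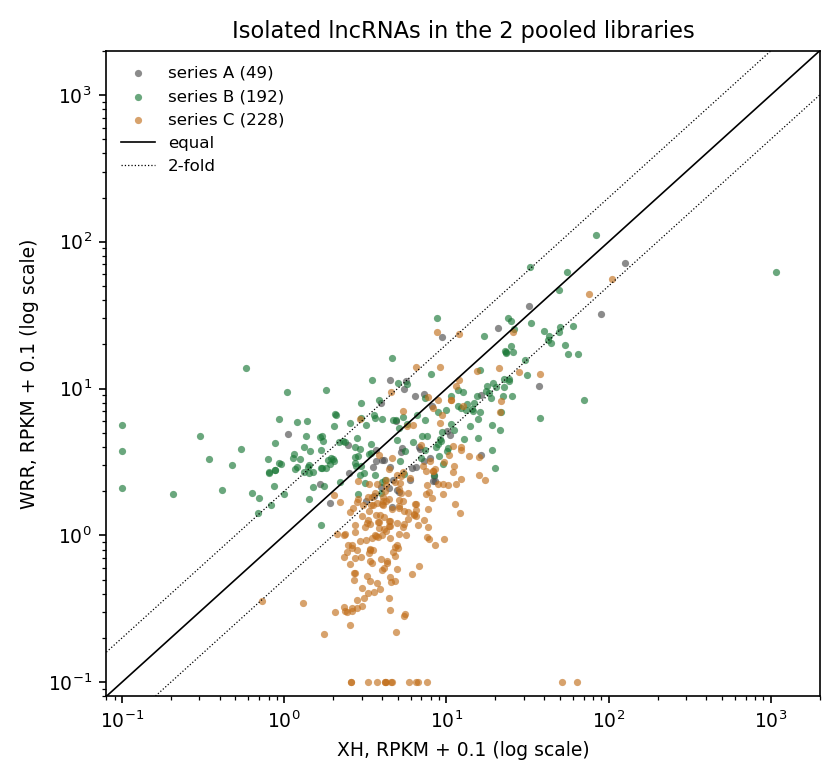
RPKM + 0.1 of each isolated lncRNA in XH (horizontal, log scale) and WRR (vertical, log scale), 1 point per transcript, coloured by numbering series, with lines of equality and of 2-fold. The point at the far right is the chromosome 1 transcript with 1077 RPKM in XH, and points on the lower or left edge at 0.1 had 0 reads in that library.

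The longest isolated lncRNA was also among the most abundant and was nearly level between the pools. It spanned 7551 bases of chromosome 3, 71146155 to 71153705, without a gap, and had 3349 reads (47.0 RPKM) for WRR against 2873 (49.3 RPKM) for XH over 99.6% and 99.5% of its length. The ratio was 0.952 (0.906 to 1.00), and the log2 ratio of -0.070 turned positive under the other 3 scalings (0.25 to 0.84). Next in length were 7222 bases at chromosome 23, 3155025 to 3162246, with 9.11 RPKM for WRR against 7.20 for XH, and 6959 bases at chromosome 12, 6078992 to 6085950, with 8.89 and 16.2 RPKM. The first was higher in WRR (1.27, 1.11 to 1.44) and the second in XH (1.82-fold, 1.64 to 2.03), which centring turned to a log2 ratio of 0.056. The shortest, of 204 bases at chromosome 2, 103381767 to 103381970, had 5 reads in WRR and 17 in XH. The third shortest, of 213 bases at chromosome 9, 2479638 to 2479850, had 5 and 26 reads and had XH over WRR at 6.36 (2.40 to 21.2).

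Isolated lncRNAs had a median length of 780 bases (quartiles 546 and 1160), and the others 853 (577 and 1287). Among the others it was 894 with the nearer neighbour below 1 kb and 771 at 1 to below 10 kb. It was 788.5 at 10 to below 50 kb and 812.5 at 50 to below 100 kb. Isolated lncRNAs of 2000 bases or more numbered 40 and had medians of 5.26 RPKM for WRR against 9.36 for XH, above the 3.61 and 5.99 RPKM of the 2103 others of that length. Those under 500 bases numbered 99, with 4.43 and 7.20 RPKM. The 330 of middle length had 2.26 and 3.99 RPKM. Neither of these classes is set beside others of its length here, so the pattern by length is not shown to be particular to isolated lncRNAs. Across the 469, Spearman's rho of length with mean RPKM was -0.077. In 445 of the 469 the interval equalled the length, in 3 it was shorter and in 21 it was longer. The widest of these 21 had 923 bases over an interval of 50027 at chromosome 10, 13611660 to 13661686, with 16 reads (1.84 RPKM) for WRR against 25 (3.51 RPKM) for XH. Its ratio was 0.523 (0.261 to 1.02), and the log2 ratio of -0.90 was 0.016 when centred. On chromosome 3, the transcripts at 50256487 to 50273137 and 55292380 to 55308633 had 1611 and 1807 bases in intervals of 16651 and 16254. They were 4.71-fold (3.03 to 7.55) and 3.11-fold (1.59 to 6.43) higher in XH, and centring took the second within 2-fold, at a log2 ratio of -0.60.

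More isolated lncRNAs were higher in the slow-growing XH than in WRR. On the scale of log2((WRR RPKM + 0.1) / (XH RPKM + 0.1)), 240 of 469 (51.2%) were at least 2-fold higher in XH and 62 (13.2%) at least 2-fold higher in WRR, while 167 lay within 2-fold. Among all listed, 46.9% of 21625 transcripts past the minimum were at least 2-fold higher in XH and 9.45% in WRR. Among the others on the same chromosomes, 47.7% and 8.42% were. The isolated shares thus lay near these, a few percent higher on both sides. The make-up by numbering series, given below, differed as well, and no difference from the background was tested. Of the 469, 228 were both past 2-fold towards XH and had an exact interval that left out 1, and 55 were so towards WRR. Among the 21625, the same pair of criteria held for 9704 (44.9%) and 1653 (7.64%). The median log2 ratio was -1.04 (quartiles -1.92 and 0.092), against -0.94 (-1.72 and -0.11) for the others on the same chromosomes.

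The balance of directions depended on the scaling, because the median log2 ratio of all listed transcripts was -0.92. Relative to that median, 118 isolated lncRNAs (25.2%, background 22.3%) were past 2-fold towards WRR and 118 (25.2%, background 20.3%) towards XH. Scaled to the reads on listed transcripts, 83 (17.7%, background 13.0%) were past it towards WRR and 192 (40.9%, background 36.3%) towards XH. Quantile normalization gave 108 (23.0%, background 20.2%) and 115 (24.5%, background 19.6%). All 4 scalings put 62 past 2-fold towards WRR and 106 towards XH. The 62 are all those past it as deposited. Centring and scaling to listed reads lower no ratio of WRR over XH, so under both this was fixed in advance. The like joint count over all listed transcripts is not given here.

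The direction followed the serial number of a transcript. By the order of chromosomes, the numbers fall into series A (up to 3658, in no order), series B (3659 to 11941) and series C (from 11942), the latter 2 each running through all chromosomes. The sources used here do not say how these series arose. Of the isolated lncRNAs, 49 were of series A, 192 of B and 228 of C (10.4%, 40.9% and 48.6%), and the others divided into 15.2%, 35.5% and 49.2%. In series B, 54 were past 2-fold towards WRR and 40 towards XH, with a median log2 ratio of 0.088. In series C, 4 were higher in WRR and 184 in XH, with a median of -1.90. In series A the numbers were 4 and 16, with a median of -0.75. Relative to the median of all listed transcripts, the balance of series A turned round, with a median of 0.16. It gave 14 (28.6%) towards WRR and 1 (2.04%) towards XH. The other series A transcripts turned likewise, with 474 (15.5%) and 66 (2.16%) of those past the minimum. When centred, isolated lncRNAs of series B had 96 and 7 of 192 with a median of 1.00. Those of series C had 8 and 110 of 228 with a median of -0.98. Centring shifts every transcript alike, and the others showed the same split by series. Their medians as deposited were 0.0074 in series B and -1.64 in series C. Their centred counts in these series are not given here. As deposited, the table's shares by series, for WRR and XH in turn, were 5.15% and 26.6% for series A. They were 23.6% and 15.9% for B, and 0.764% and 76.1% for C.

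**Figure D3:**
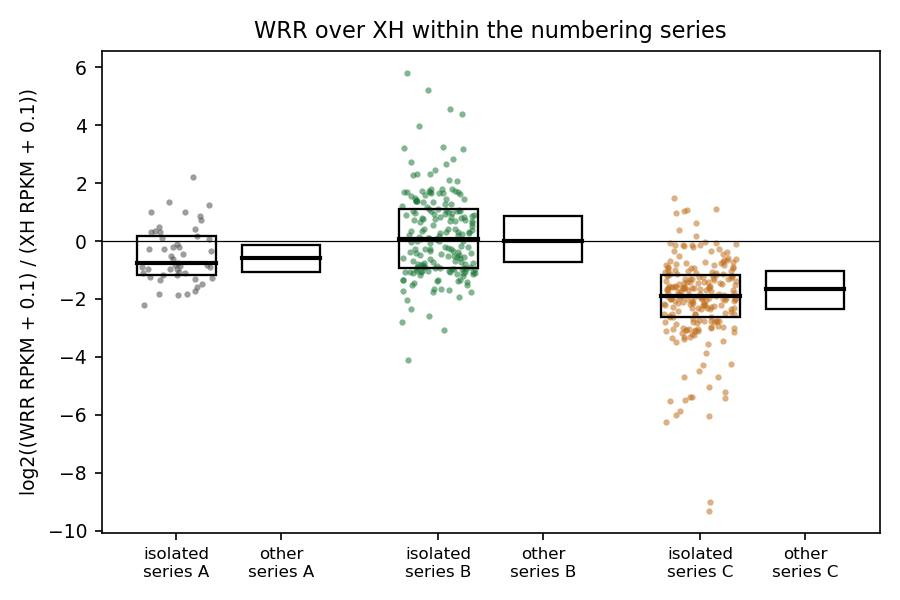
log2 ratio of WRR over XH (vertical axis) of isolated lncRNAs (points, with a box for the quartiles and a thick line for the median) and of other lncRNAs on the same chromosomes (box and median only) in the 3 numbering series. The medians of isolated and other lncRNAs were -0.75 and -0.60 (series A), 0.088 and 0.0074 (B), and -1.90 and -1.64 (C).

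Coverage divided along the same series. Of the 192 isolated lncRNAs of series B, 178 (92.7%) had reads over at least 80% of their length in WRR, and 106 (55.2%) in XH. The lowest coverage of any of them in WRR was 64.7%, and in XH 40 were under 50%. Series C was the mirror image, with 212 of 228 (93.0%) at 80% or more in XH and 41 (18.0%) in WRR, where 93 were under 50%. In series A, 32 and 35 of 49 reached 80% in WRR and XH. The other transcripts on the same chromosomes divided likewise. In series B, 81.5% of them reached 80% in WRR and 51.0% in XH, and in series C 22.3% and 82.2%. Over all isolated lncRNAs the median coverage was 83.6% in WRR and 89.8% in XH, and 56 (11.9%) were covered to at least 95% in both. Coverage rises with the number of reads, and its part in the difference between the pools was not tested.

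**Figure D4:**
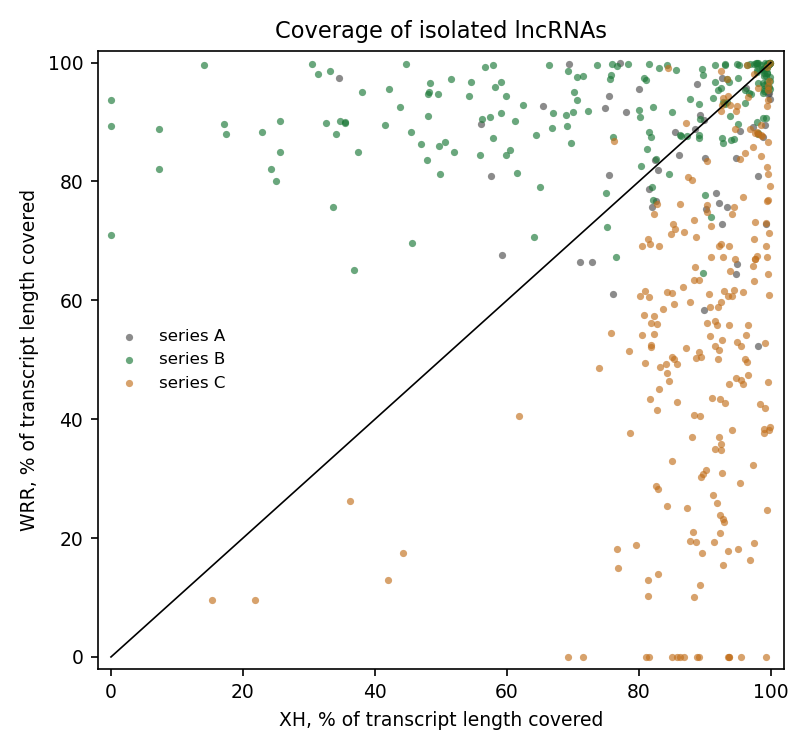
Percent of transcript length covered by reads in XH (horizontal) and WRR (vertical) for each isolated lncRNA, coloured by numbering series. Series B lies along the top (at least 64.7% in WRR) and series C along the right (212 of 228 at 80% or more in XH), while series A has at least 52.3% in WRR.

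A few isolated lncRNAs with at least 50 reads were covered incompletely. With that many reads in a library, 13 of 108 in WRR and 7 of 141 in XH were covered to less than 80%. The limit takes no account of length, and long transcripts with thin reads were among those in WRR. Unevenness was not tested, and the like shares of other transcripts are not given here. The lowest in both pools, named after its values were seen, was the 3760-base transcript spanning 6995712 to 6999471 of chromosome 14. Its 195 reads in WRR and 163 in XH (5.49 and 5.62 RPKM) covered 26.3% and 36.3% of it. Most of its listed length thus carried no read in either pool alone.

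The largest differences towards WRR rested on few XH reads. Among isolated lncRNAs read in both pools, the 8 highest log2 ratios had 16 to 49 reads in WRR and 1 to 4 in XH, and all 8 were of series B. At chromosome 2, 67472222 to 67472492, a 271-base transcript had 35 reads (13.7 RPKM) in WRR and 1 read in XH, WRR over XH being 28.6 (4.81 to 1161). The 641-base transcript spanning 4138229 to 4138869 of chromosome 2 had 28 reads against 1, WRR over XH being 22.9 (3.78 to 935). The best read of the 8 was at chromosome 2, 90475989 to 90476540, with 49 reads (9.40 RPKM) for WRR against 4 (0.939 RPKM) for XH, WRR over XH being 10.01 (3.67 to 38.2). At chromosome 7, 23936122 to 23937347, and chromosome 8, 5809180 to 5810030, there was likewise 1 read in XH, with ratios of 17.2 (2.76 to 710) and 13.1 (2.03 to 548). The remaining 3 had 2 reads each in XH. They were at chromosome 3, 78454511 to 78455100, chromosome 5, 42780879 to 42781189, and chromosome 7, 21021803 to 21022491, with ratios of 8.58, 7.35 and 7.76 and lower bounds of 2.10, 1.76 and 1.87.

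Towards XH, transcripts with 0 reads in WRR, given further on, had the lowest log2 ratios. Among those read in both pools, 7 of the 8 lowest were of series C with 1 or 2 reads in WRR, and the eighth was the abundant chromosome 1 transcript of series B. At chromosome 3, 86708229 to 86709126, an 898-base transcript had 1 read in WRR and 33 (4.76 RPKM) in XH, XH over WRR being 40.4 (6.76 to 1643). A 583-base transcript spanning 9173758 to 9174340 of chromosome 7, with 1484342 bases free before it, had 1 read against 24, XH over WRR being 29.4 (4.79 to 1208). On Z, the 551-base transcript spanning 9421353 to 9421903 had 1 read against 23, 28.2-fold (4.57 to 1160). The first listed transcript of chromosome 13, at 234778 to 235280, had 1 read against 17, 20.8-fold (3.26 to 870). Those at chromosome 2, 131277544 to 131278015, and chromosome 3, 55101984 to 55102392, had 2 reads each in WRR and were 13.5-fold (3.31 to 118) and 12.9-fold (3.14 to 113) higher in XH. With so few reads on 1 side, counting error alone allows sizes across these wide limits. The limits hold neither the spread between birds nor the choice of scaling, and these transcripts were picked for their extreme ratios.

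Other large differences towards XH had more reads. Within series B, where the medians were nearly level, the next lowest log2 ratio after it was that of a 243-base transcript spanning 125803198 to 125803440 of chromosome 2, with 19 reads (8.28 RPKM) for WRR against 131 (69.9 RPKM) for XH, 8.44-fold higher in XH. It was followed by the 758-base transcript spanning 5584885 to 5585642 of chromosome 14, with 2.79 RPKM for WRR against 19.8 for XH, and by the 1480-base transcript spanning 47921897 to 47923376 of chromosome 2, with 87 reads (6.23 RPKM) against 431 (37.7 RPKM). These were named after their values were seen, and each stayed below a log2 ratio of -1 under all 4 scalings.

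Against the trend of series C, 4 transcripts had at least 2-fold more in WRR. They too are named because of their values. The largest was at chromosome 8, 19350650 to 19351660, with 232 reads (24.3 RPKM) for WRR against 67 (8.59 RPKM) for XH, WRR over XH being 2.83 (2.15 to 3.77). The other 3, at chromosome 1, 83190121 to 83190939, chromosome 9, 15058057 to 15059215, and chromosome 11, 2146111 to 2146575, had ratios of 2.13, 2.18 and 2.09. Coverage was 84.4% or more in both pools for all 4. In series A, the 4 at least 2-fold higher in WRR included a 1501-base transcript spanning 61073018 to 61074648 of chromosome 4, with 68 reads (4.798 RPKM) over 97.4% of its length in WRR and 11 (0.950 RPKM) over 34.5% in XH, WRR over XH being 5.05 (2.65 to 10.6).

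Reads in 1 library only were found for 18 isolated lncRNAs, 15 with 0 reads in WRR, all of series C, and 3 with 0 reads in XH, all of series B. These are 3.20% and 0.640% of the 469, against 2.53% and 1.39% of the others. For these, a fold was computed with 3 reads in place of 0, and beside it stands the lower limit of the exact interval at 0 reads, which is smaller. The 305-base transcript spanning 162396146 to 162396450 of chromosome 1 had 121 reads (51.4 RPKM) in the XH pool, reaching 95.4% of its bases, and 0 in WRR. Set against that floor it was 49.4-fold higher in XH, and at least 39.5-fold by the exact interval. It is also the second most isolated of all, with 890056 bases free before it and 2625709 after it. On the same chromosome, the 205-base transcript spanning 141598775 to 141598979, the second shortest, had 101 reads in XH over 69.3% of its length, 41.2-fold higher against the floor and at least 32.9-fold by the exact interval. The third was the 1079-base transcript spanning 80781080 to 80782158 of chromosome 4, with 48 reads (5.77 RPKM) in XH, a fold of 19.6 against the floor and of at least 15.3 by the exact interval. WRR alone had 28 reads (5.54 RPKM) of a 535-base transcript spanning 2917952 to 2918486 of chromosome 21, 7.63-fold higher against the floor and at least 5.80-fold by the exact interval. It also had 14 reads each of 2 others (31253235 to 31253640 of chromosome 5 and 6522142 to 6522881 of chromosome 11), 3.81-fold higher against the floor and at least 2.71-fold by the exact interval.

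The median ratio fell across the 4 bands of distance from 50 kb on, but not over the whole range of distances, and the make-up by series changed along it. It was -0.94 below 1 kb, -1.0002 at 1 to below 10 kb and -0.83 at 10 to below 50 kb. The median log2 ratio was -0.77 for the 568 transcripts with a nearer distance of 50 to below 100 kb, -0.92 for the 310 at 100 to below 200 kb, -1.20 for the 143 at 200 to below 500 kb and -1.93 for the 16 at 500 kb or more. The share of series C in these bands was 41.0%, 44.8%, 55.2% and 62.5%. Within series C the medians were -1.72, -1.78, -1.95 and -2.98, and within series B -0.11, 0.14, -0.26 and 1.74, so that series B showed no such order. The last of these medians rest on 10 and 5 transcripts. Across the 469, which share 2 libraries, Spearman's rho of nearer distance with the log2 ratio was -0.092, with mean RPKM -0.036 and with length 0.063.

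**Figure D5:**
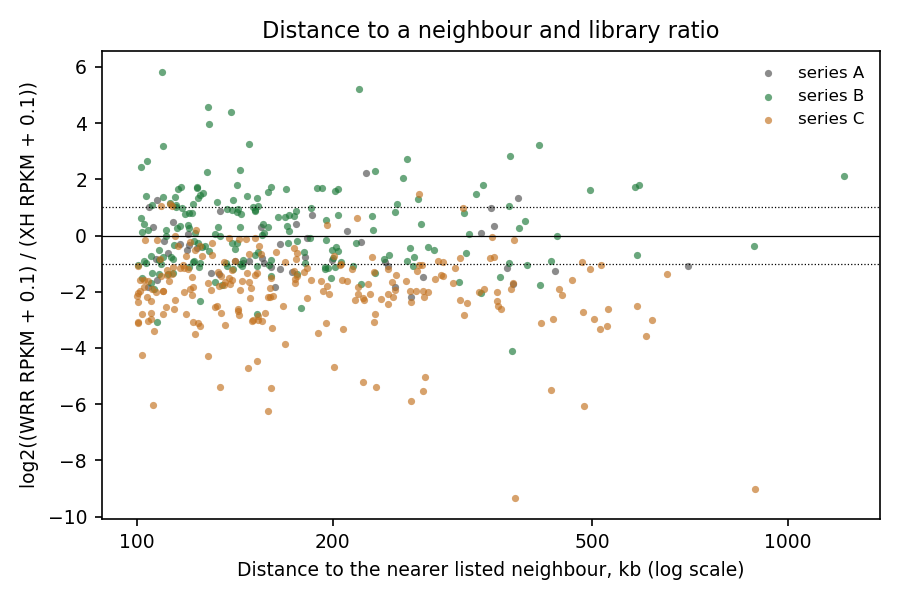
log2 ratio of WRR over XH (vertical axis, dotted lines at 2-fold) against the distance to the nearer listed neighbour in kb (horizontal, log scale) for each isolated lncRNA, coloured by numbering series. Series B points lie mostly above series C points, and both spread widely (Spearman's rho of -0.092 over all 469).

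The isolated lncRNAs of Z had the lowest ratios among the chromosome classes. Their median log2 ratio was -1.45, with 3 of 53 past 2-fold towards WRR and 34 towards XH. The 795 other transcripts of Z had a median of -1.14, and 3.28% of those past the minimum were past 2-fold towards WRR and 56.1% towards XH, beside 5.66% and 64.2% of the isolated. When centred, 8 of the 53 were past 2-fold towards WRR and 15 towards XH, beside 22.3% and 20.3% of all listed transcripts. The centred shares of the other transcripts of Z are not given here. Isolated lncRNAs of chromosomes 1-5 had a median of -1.11, those of 6-10 of -0.94 and those of 11-28 of -0.43, against -1.05, -0.91 and -0.52 for the others there. Within series C the isolated medians for 1-5, 6-10, 11-28 and Z were -1.86, -1.93, -1.65 and -1.99, and within series B -0.18, 0.67, 0.79 and -0.58, from 17 to 138 transcripts each. No test of these class differences was possible with 1 library per strain.

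Abundance in the 2 pools was related less closely among isolated lncRNAs than among the others. Pearson's r of log2(RPKM + 0.1) was 0.45 across the 469 and 0.60 across the 20144 others, which are not replicates and share both libraries. Within series A, B and C it was 0.71, 0.73 and 0.52 for isolated and 0.81, 0.79 and 0.68 for other transcripts. Spearman's rho was 0.52, 0.73 and 0.56 against 0.68, 0.78 and 0.63.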

How the data were processed

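One table of lncRNAs was analysed, with 1 pooled library per strain. Per the file headers, a deposited read count is the number of reads placed uniquely on that transcript. RPKM, as deposited, is scaled to the total beside each library's reads column, and the formula gave all 21449 listed WRR and 21697 listed XH values within 0.001%. The deposited coverage is a percent of transcript length, per the file headers. TopHat2 2.0.8, Cufflinks 2.0.2 and galGal4 are named without roles in the submitters' processing notes, and the assembly, filters and non-coding call are not given in the sources used here. A dash was taken as 0 reads, since the smallest listed count was 1. Starts were read as counted from 0 and are printed from 1.

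Distances, ratios with a pseudocount of 0.1 RPKM and a minimum of 0.5 RPKM in the higher library, and exact 95% (Clopper-Pearson) intervals of read ratios were computed with Python 3.11.15, pandas 2.3.3 and scipy 1.17.1, and tested on simulated data. Intervals and the floor of 3 reads cover counting error only. The members, classes and rules were chosen with earlier results of these data known. Named transcripts were the 8 most isolated, the 10 of highest mean RPKM, the 8 highest and 8 lowest ratios, up to 3 with most reads against 0 in either library, the 3 longest, 3 shortest and 3 with the widest intervals, and 3 on each side of the distance limit. Those named after their values were seen are marked. Genes near the transcripts were not analysed here.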

Additional observations from a re-analysis of the deposited data

How the results depend on the processing

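No paired analysis was possible because there is just 1 library of pooled RNA on either side. Leaving out a library would end the comparison. The counts at least 2-fold higher in XH and WRR, 240 and 62, were 118 and 118 when centred and 115 and 108 after quantile normalization. The median log2 ratio of -1.04 was -0.84 with a pseudocount of 1, -0.13 when centred, -0.74 when scaled to listed reads and -0.27 after quantile normalization. A distance of 50000 bases gave 1037 transcripts, with 486 higher in XH, 132 in WRR and a median of -0.90. A distance of 200000 bases gave 159, with 95, 20 and -1.21. Beside both sets of counts stand 46.9% of all listed transcripts at least 2-fold higher in XH and 9.45% in WRR. The make-up changed too, with 56.0% of the 159 in series C against 48.6% of the 469. Series A alone gave 16 and 4, a median of -0.75, a median length of 1314 bases and a median mean RPKM of 5.15. Series B alone gave 40 and 54, a reversed median of 0.088 and 5.32 RPKM, and series C alone 184 and 4, -1.90, 729 bases and 2.803 RPKM. Fewer transcripts enter each of these subsets by construction. The cause of the other changes was not tested. The remaining settings kept the counts within 1.5 times and gave median log2 ratios from -1.07 to -0.98. They were a minimum of 2 RPKM, no minimum, at least 20 reads, a pseudocount of 0.01 and leaving out each chromosome's first and last transcript. The last of these gave a median length of 784 bases and a median mean RPKM of 3.53. Of the 47 named transcripts, 19 had a value outside the exact interval of their ratio when centred, 13 after quantile normalization, 10 when scaled to listed reads and 3 with a pseudocount of 1. Depth limits 31 of the 469, which had fewer than 20 reads over both libraries.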

Other observations

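Some isolated lncRNAs followed one another. This follows in part from the definition, since a neighbour of an isolated transcript already has at least 100 kb free on the shared side. Whether runs were more common than that gives was not tested. Of the 469, 164 (35.0%) stood in 75 runs of 2 or more successive listed transcripts that were all isolated, and the longest runs, of which there were 2, had 5 members. One spanned 1799 kb of chromosome 1, 142094845 to 143893372, with 0.494 to 4.24 RPKM in WRR and 2.27 to 9.49 RPKM in XH. Of its 5 members, 3 were at least 2-fold higher in XH and none in WRR, and these 3 were of series C and the other 2 of series B. The other run spanned 694 kb of Z, 1555864 to 2249785, with 3 members at least 2-fold higher in XH and 1 in WRR. A run of 3 on chromosome 1, 20269695 to 21626617, lay next to 1632 kb without a listed transcript and held log2 ratios from -5.50 to 1.04. In the chromosome 1 run of 5, log2 ratios ranged from -3.34 to 0.87. Members of a run thus did not all share a direction in these 3 places, which were picked for their length or emptiness. Among runs of 3 or more, only that of chromosome 4, 88846205 to 89391519, had log2 ratios all of 1 sign as deposited (-1.95 to -0.20). This depended on the scaling. Centring adds 0.92 to each log2 ratio, which turns the -0.20 of that run positive. It also makes the run of chromosome 18, 8230737 to 9186702 (-0.71 to 0.74 as deposited), positive throughout.

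The 10 isolated lncRNAs at a chromosome's end had a median log2 ratio of 0.31, and 3 of them were past 2-fold towards WRR and 1 towards XH, beside 9.45% and 46.9% of all listed transcripts. When centred, 6 were past 2-fold towards WRR and 1 towards XH, beside 22.3% and 20.3% of all listed transcripts. Of these 10, 7 were of series B. In that series, 23.6% of all listed transcripts were past 2-fold towards WRR as deposited and 15.9% towards XH. A part of the chromosome's end apart from the series was not tested.

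The 4 members that were the only isolated lncRNA of their chromosome, among 20 to 148 listed there, differed widely in abundance. On chromosome 22, the transcript at 2974083 to 2974556 had 25.5 RPKM for WRR against 25.98 for XH, with 1023120 bases free after it. On chromosome 16, the one at 319023 to 319639 had 7.55 and 12.6 RPKM, and on chromosome 26, the one at 354088 to 354491 had 5.50 and 6.10 RPKM. On chromosome 25, the one at 15513 to 16487 had 2.93 and 1.33 RPKM, a ratio of 2.21 (1.03 to 5.11).

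Of the 420 isolated lncRNAs of series B and C, 32 (7.62%) had an adjoining serial number without a row, close to the 7.42% of the other transcripts of these series.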
